A study of Homo sapiens with 105 samples.

Results

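The genes described here are 35 genes of the endoplasmic reticulum (ER) chosen by symbol: its chaperones and folding enzymes, the sensors and transcription factors of the unfolded protein response with XBP1, the machinery of ER-associated degradation (ERAD), and parts of the translocon and of the COPII coat. A probeset was taken for a gene when the array annotation named that gene alone, and the brightest one by its mean over arrays was used, so that 34 of the 35 genes were measured among 54613 probesets tested. SYVN1 was the exception, since its probeset is shared with MIR6751. The annotation lists ERO1LB as ERO1B and SELK as SELENOK.

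Vk2/E6E7 cells, a line of human vaginal epithelium immortalized with the E6 and E7 genes of a papillomavirus, were cultured in growth medium alone (GM) or treated for 6 h with 1 of 7 compounds, and their RNA was hybridized to Affymetrix U133 Plus 2.0 arrays. The pro-inflammatory compounds (PICs) were the detergent nonoxynol-9 (N-9, 12.5 μg/ml, 9 arrays), the TLR7 ligand imiquimod (IMQ, 6 arrays), the TLR2 lipopeptides MALP2 (200 ng/ml, 6 arrays) and Pam3CSK4 (10 μg/ml, 6 arrays), and TNF-α (40 ng/ml, 5 arrays). The non-inflammatory compounds (NICs) were hydroxyethyl cellulose (HEC) and carboxymethyl cellulose (CMC), each at 1 mg/ml with 9 arrays. The labels give imiquimod at 30 mg/ml, a figure that the methods state in μg/ml. GM had 53 arrays. All groups share this single cell line in monolayer culture, so the arrays stand for cultures and not for donors. Of the 105 deposited arrays, 103 were used. GM replicate 52 correlated with no other array above r = 0.0484, where all other pairs reached at least 0.835, and TNF-α replicate 6 equalled the mean of TNF-α replicates 1 to 3 within 7.67e-09.

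Secretory and membrane proteins enter the ER through the translocon, are folded there by chaperones and disulfide enzymes, and leave in COPII vesicles or are returned to the cytosol for degradation by ERAD. When unfolded proteins accumulate, the sensors IRE1 (encoded by ERN1), PERK (EIF2AK3) and ATF6 start the unfolded protein response. IRE1 splices the XBP1 mRNA so that it encodes an active transcription factor, ATF6 is cut into one, and PERK slows translation while raising ATF4. Active ATF6 and XBP1 bind the ER stress response elements ERSE and ERSE-II in the promoters of chaperone and ERAD genes.

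These elements were looked for in RefSeq promoters (GRCh38.p14, from 250 bases before to 50 bases after the start site), which were at hand for 31 of the 35 genes. ERSE was searched as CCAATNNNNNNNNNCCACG and ERSE-II as ATTGGNCCACG, on both strands. The ends of the 2 motifs are the same letters in another orientation and spacing, and no match overlapped another. Both elements are known from promoters of chaperone and ERAD genes, so their share among the genes chosen here is not a test. ERSE matched in 7 of the 31 promoters and ERSE-II in 3, together 10 (CALR, CANX, CRELD2, ERO1LB, HERPUD1, HSP90B1, HSPA5, HYOU1, SDF2L1 and XBP1), against 0.0769%, 0.0541% and 0.131% of all 35116 promoters in the table. The 250 bases before the start site are shown for 5 of them whose RNA changes are described first below, read 5′ to 3′ on the strand of the gene, with the 5 bases at each end of a match in capitals. HERPUD1 lies at chr16:56931892-56932141 (forward strand), SDF2L1 at chr22:21642052-21642301 (forward strand), HSPA5 at chr9:125241344-125241593 (reverse strand), HSP90B1 at chr12:103930160-103930409 (forward strand) and XBP1 at chr22:28800570-28800819 (reverse strand).
HERPUD1: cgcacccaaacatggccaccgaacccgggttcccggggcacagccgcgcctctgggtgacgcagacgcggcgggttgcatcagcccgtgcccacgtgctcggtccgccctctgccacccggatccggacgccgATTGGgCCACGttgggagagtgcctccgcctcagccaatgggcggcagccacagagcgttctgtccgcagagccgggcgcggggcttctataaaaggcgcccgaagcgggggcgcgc
SDF2L1: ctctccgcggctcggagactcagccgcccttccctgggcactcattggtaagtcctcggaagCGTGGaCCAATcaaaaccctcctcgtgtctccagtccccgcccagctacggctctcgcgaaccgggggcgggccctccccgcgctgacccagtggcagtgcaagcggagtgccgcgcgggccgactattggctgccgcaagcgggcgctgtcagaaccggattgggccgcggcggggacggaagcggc
HSPA5: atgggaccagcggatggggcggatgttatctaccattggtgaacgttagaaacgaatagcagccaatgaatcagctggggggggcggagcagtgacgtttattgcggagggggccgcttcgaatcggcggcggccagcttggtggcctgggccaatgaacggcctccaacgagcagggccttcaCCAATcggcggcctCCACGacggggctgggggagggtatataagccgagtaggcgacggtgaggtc
HSP90B1: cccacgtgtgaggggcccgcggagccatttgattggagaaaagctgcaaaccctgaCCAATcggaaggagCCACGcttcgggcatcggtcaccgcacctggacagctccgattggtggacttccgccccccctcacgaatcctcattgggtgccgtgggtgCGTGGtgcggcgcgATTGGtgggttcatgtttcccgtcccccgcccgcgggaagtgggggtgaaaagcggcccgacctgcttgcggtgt
XBP1: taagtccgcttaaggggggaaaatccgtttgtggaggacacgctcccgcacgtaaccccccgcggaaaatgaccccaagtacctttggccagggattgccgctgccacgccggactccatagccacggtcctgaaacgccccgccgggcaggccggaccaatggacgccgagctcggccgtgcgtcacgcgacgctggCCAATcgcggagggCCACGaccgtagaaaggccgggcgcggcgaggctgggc

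Counted from the start site, the first base of the match lay at -117 in HERPUD1 and at -188 in SDF2L1, both of the ERSE-II kind, and at -66 in HSPA5 and -52 in XBP1, both ERSE. HSP90B1 held 2 ERSE matches, at -194 and -89. HYOU1, not shown, held 2 ERSE-II matches. A match is a stretch of letters and not a measured binding site.

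**Figure D1:**
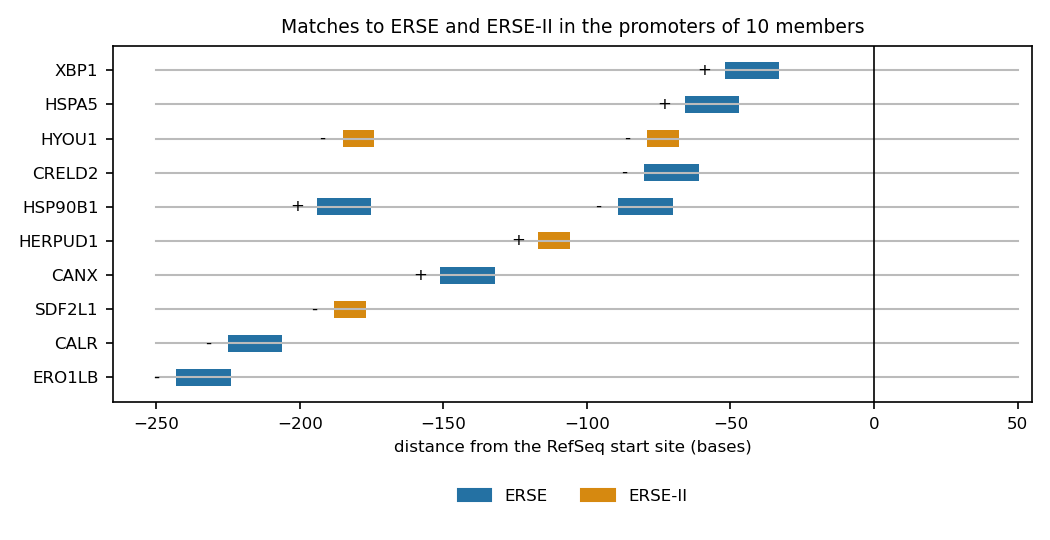
Position of each match to ERSE (blue) and ERSE-II (orange) along the promoters of the 10 genes that held one, in bases from the RefSeq start site at 0. The sign left of a box gives the strand relative to the gene. HSP90B1 and HYOU1 have 2 boxes each.

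The cells carried the markers of stratified squamous epithelium in all groups, with group means between 10.92 and 15.09 on the log2 scale for 9 genes such as KRT5, KRT14 and DSP. Markers of other cell types were spread widely. The 7 leukocyte genes had group means of 3.64 (PTPRC) to 7.90 (CD79A) with a median of 7.04 in GM. The 5 endothelial genes had 3.03 (CDH5) to 8.32 (PECAM1). Of the 6 fibroblast genes only the collagen COL1A1 was high, at 10.12 to 11.55. The others ran from 3.76 (PDGFRB) to 8.01 (DCN). The median of the deposited values was 6.57 to 6.97 on the N-9 arrays and 6.29 to 6.91 on the GM arrays before quantile normalization, and the 3′ control probeset of ACTB exceeded the 5′ one, which reflects how intact the RNA was, by 0.95 ± 0.68 with IMQ (SD, n = 6) and 0.43 ± 0.28 in GM (SD, n = 53). The part of these values in the results was not tested. The table has no detection calls. RNA of whole cultures was measured, at an input that the methods describe as quantified, and the values were normalized between arrays. They are therefore relative to the other RNA of a culture and do not tell which of its cells changed.

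N-9 raised 6 of 7 HSP70 and HSP90 chaperones and cofactors of the ER and 4 of 8 measured ERAD genes. The test was limma, which fits all groups at once and adjusts p-values by Benjamini-Hochberg over all probesets. At an adjusted p under 0.05, 22 of the 34 genes were higher with N-9 than in GM and none was lower. Of all probesets, 7.35% were higher and 10.1% lower. Changes over 2-fold were found for 10 of these 22 genes (2.26% of all probesets). The median change of the 34 genes was 0.83 on the log2 scale, against -0.01 for all probesets. IMQ gave 25 of 34 higher and none lower, where 4.68% of all probesets were higher and 6.19% lower. With IMQ, 17 genes changed over 2-fold (1.74% of all probesets), and the median change of the 34 genes was 1.00. An unadjusted p under 0.05 was found for 26 of the 34 genes with N-9 and for 25 with IMQ. Of the 54613 probesets, 15782 had one with N-9 and 11916 with IMQ. N-9 and IMQ were compared with the same GM arrays, so their values are given side by side without a measure of overlap.

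**Figure D2:**
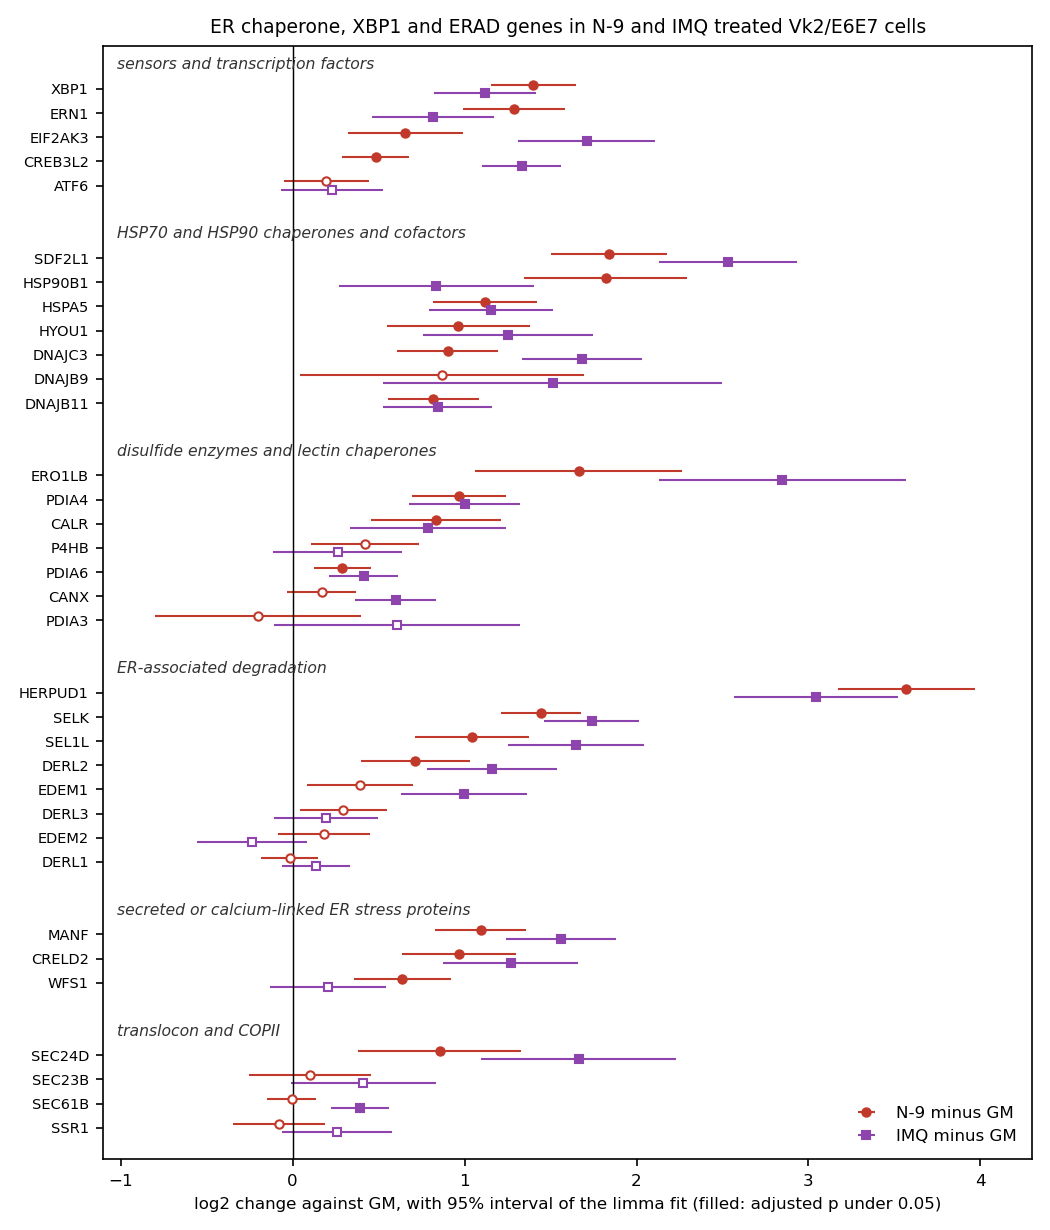
log2 change of each gene with N-9 (circles) and with IMQ (squares) against GM, with the 95% interval from limma, grouped by role. Filled symbols passed an adjusted p under 0.05, as 22 did for N-9 and 25 for IMQ, and HERPUD1 lies farthest to the right for both.

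Among the sensors and transcription factors, 4 of 5 genes were higher with N-9 and 4 of 5 with IMQ. XBP1 had values of 12.39, 12.50 and 12.65 (lowest, median and highest) on the N-9 arrays, 11.96, 12.24 and 12.53 on the IMQ arrays, and 10.33, 11.14 and 12.28 on the GM arrays. Every N-9 array was above every GM array, whereas the IMQ arrays overlapped the highest GM arrays. Its log2 change was 1.40 ± 0.12 (SE) with N-9 (2.64-fold, adjusted p = 2.88e-16) and 1.12 ± 0.15 with IMQ (adjusted p = 6.09e-09). The array reads the amount of XBP1 mRNA and not its splicing. A second probeset of XBP1, far dimmer at a mean of 5.70, did not pass for either (0.49 with N-9, adjusted p = 0.403).

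ERN1, the gene of the IRE1 kinase and endonuclease, had 8.43, 9.81 and 10.54 with N-9, 8.79, 9.11 and 9.39 with IMQ, and 7.51, 8.28 and 9.08 in GM. The lowest N-9 arrays lay within the GM range, the others above it. It rose by 1.29 ± 0.15 with N-9 (adjusted p = 2.64e-11) and by 0.82 ± 0.18 with IMQ (adjusted p = 0.000445). EIF2AK3, the gene of PERK, showed the other order, with 9.74, 10.85 and 11.04 under N-9, 11.32, 11.65 and 11.91 under IMQ, and 8.80, 10.04 and 10.61 in GM. All IMQ arrays were above all GM arrays, and 3 of the 9 N-9 arrays were not. The change was 0.66 ± 0.17 with N-9 (adjusted p = 0.00229) and 1.71 ± 0.20 with IMQ (adjusted p = 8.94e-11). Its second probeset, dim at a mean of 2.79, did not pass for either (-0.04 with N-9 and 0.81 with IMQ). CREB3L2, an ER-anchored transcription factor that is cut like ATF6, was raised by 0.48 with N-9 and by 1.33 with IMQ.

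ATF6 itself had values of 9.19, 9.86 and 10.32 with N-9, 9.50, 9.78 and 10.15 with IMQ, and 8.88, 9.54 and 10.39 in GM. The ranges overlapped throughout, and the changes of 0.20 and 0.23 did not pass the test (adjusted p = 0.302 and 0.396). ATF6 acts after cleavage of the protein, which an array does not read.

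All HSP70 and HSP90 chaperones and cofactors but 1 were higher with N-9 (6 of 7), and all 7 were with IMQ. When sets of 3 consecutive replicate numbers were fitted as a random block, 6 passed with N-9 and 5 with IMQ (3.46% and 2.44% of all probesets higher). HSPA5, the gene of BiP, the main HSP70 of the ER, lay at 14.61, 14.92 and 15.07 with N-9, at 14.86, 14.94 and 15.02 with IMQ, and at 12.62, 13.77 and 14.79 in GM. The IMQ arrays stood above all GM arrays, and so did the N-9 arrays except 2. The changes were 1.12 ± 0.15 with N-9 (adjusted p = 6.49e-09) and 1.16 ± 0.18 with IMQ (adjusted p = 7.10e-07). SDF2L1, a luminal partner of the HSP40 cochaperone encoded by DNAJB11, had 10.00, 11.89 and 12.20 with N-9, 11.81, 12.05 and 12.46 with IMQ, and 8.71, 9.54 and 10.78 in GM. Of the 9 N-9 arrays, replicates 4 to 6 lay between 10.00 and 10.32, inside the GM range. SDF2L1 rose by 1.84 ± 0.17 with N-9 (adjusted p = 1.29e-15) and by 2.53 ± 0.20 with IMQ (5.79-fold, adjusted p = 1.71e-18).

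HSP90B1, the gene of the HSP90 of the ER, GRP94, gave 13.37, 13.44 and 13.89 with N-9, 12.33, 12.56 and 12.73 with IMQ, and 9.67, 11.77 and 13.03 in GM. Every N-9 array was above every IMQ array and every GM array, while the IMQ arrays lay within the upper GM range. Its change was 1.82 ± 0.24 with N-9 (adjusted p = 1.99e-09) and 0.84 ± 0.29 with IMQ (adjusted p = 0.0413). With sets of 3 consecutive replicate numbers as a random block the IMQ change did not pass (adjusted p = 0.106), and against GM replicates 1 to 9 alone it was 0.00 (adjusted p = 0.998). The second brightest probeset of HSP90B1 changed by 0.68 with N-9 (adjusted p = 0.288) and by 1.61 with IMQ (adjusted p = 0.0232).

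DNAJC3, whose product is an HSP40 of the ER lumen, had 10.68, 11.90 and 12.73 with N-9, 12.35, 12.46 and 12.80 with IMQ, and 10.28, 10.72 and 11.84 in GM. All IMQ arrays were higher than all GM arrays, and the lowest 3 N-9 arrays were not. The changes were 0.90 ± 0.15 with N-9 (adjusted p = 1.07e-06) and 1.68 ± 0.18 with IMQ (adjusted p = 9.28e-13). HYOU1, the nucleotide exchange factor of BiP, rose by 0.96 with N-9 and 1.25 with IMQ, and DNAJB11 by 0.82 and 0.84. Against GM replicates 1 to 9 alone, HYOU1 did not pass with N-9 (0.37, adjusted p = 0.279) and passed with IMQ (0.66, adjusted p = 0.0350).

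Of the disulfide enzymes and lectin chaperones, 4 of 7 were higher with N-9 and 5 of 7 with IMQ. ERO1LB, an oxidase that passes oxidizing power to protein disulfide isomerases, had values of 5.26, 7.51 and 8.47 with N-9, 7.53, 8.45 and 9.53 with IMQ, and 3.31, 5.86 and 6.95 in GM. All IMQ arrays lay above all GM arrays, and the N-9 arrays overlapped them. It rose by 1.66 ± 0.30 with N-9 (adjusted p = 1.13e-05) and by 2.85 ± 0.36 with IMQ (adjusted p = 1.31e-09). PDIA4, a protein disulfide isomerase, rose by 0.97 with N-9 and by 1.00 with IMQ, PDIA6 by 0.29 and 0.41, and the calcium-binding lectin CALR by 0.83 and 0.79. PDIA6 did not pass for N-9 with the random block (adjusted p = 0.0732), nor against GM replicates 1 to 9 alone (0.21, adjusted p = 0.241). Against these GM arrays CALR passed for neither compound, at 0.22 with N-9 (adjusted p = 0.618) and 0.17 with IMQ (adjusted p = 0.686). CANX, the membrane-bound lectin, passed with IMQ alone (0.60, adjusted p = 9.95e-05) and had a change of 0.17 with N-9 (adjusted p = 0.266). P4HB and PDIA3, the genes of the isomerases PDI and ERp57, passed for neither, at 0.42 and -0.20 with N-9 and at 0.26 and 0.61 with IMQ. Their sign and call depended on the GM arrays. Against GM replicates 1 to 9 alone, PDIA3 was higher by 1.22 with N-9 (adjusted p = 0.000936) and by 2.04 with IMQ (adjusted p = 1.08e-06), and P4HB changed by -0.27 and -0.43 without passing.

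In the ERAD group, 4 of 8 genes were higher with N-9 and 5 of 8 with IMQ. HERPUD1, which encodes an ER membrane protein of the HRD1 ubiquitin ligase complex, was the gene that moved most. Its values were 13.67, 13.81 and 14.15 with N-9, 13.04, 13.30 and 13.62 with IMQ, and 8.92, 10.11 and 12.44 in GM. Both treated groups lay wholly above GM, and N-9 wholly above IMQ. The log2 change was 3.57 ± 0.20 with N-9 (11.9-fold, adjusted p = 2.88e-28) and 3.04 ± 0.24 with IMQ (8.25-fold, adjusted p = 9.18e-19). A second, dim probeset of HERPUD1 at a mean of 4.15 gave 2.19 with N-9 and 0.86 with IMQ (adjusted p = 4.69e-12 and 0.0377), the second of which did not pass with the random block (adjusted p = 0.312).

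SELK, a selenoprotein of the ER membrane, had 11.69, 12.39 and 12.55 with N-9, 12.24, 12.55 and 12.94 with IMQ, and 10.05, 10.83 and 11.50 in GM. Neither treated group overlapped GM. The changes were 1.45 ± 0.12 with N-9 (adjusted p = 2.33e-18) and 1.74 ± 0.14 with IMQ (adjusted p = 2.64e-18). SEL1L, the adaptor that ties substrates to the HRD1 ligase, rose by 1.04 and 1.65, and DERL2, a derlin of the same channel, by 0.71 and 1.16. EDEM1, which marks misfolded glycoproteins for disposal, passed with IMQ (1.00, adjusted p = 2.81e-05) but not with N-9 (0.39, adjusted p = 0.0687). EDEM2, DERL1 and DERL3 passed for neither, with changes between -0.24 and 0.30. The ligase HRD1 itself is encoded by SYVN1, and the probeset shared with MIR6751 changed by 0.64 with N-9 (adjusted p = 0.00114) and by 0.67 with IMQ (adjusted p = 0.00779, and 0.0872 with the random block).

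The secreted ER stress proteins CRELD2 and MANF rose by 0.97 and 1.09 with N-9 and by 1.27 and 1.56 with IMQ. WFS1, a membrane protein linked to ER calcium, passed with N-9 alone (0.64, adjusted p = 0.000387). For IMQ its change was 0.21 (adjusted p = 0.535), and the difference between the compounds did not pass. Against GM replicates 1 to 9 alone, MANF passed with N-9 (1.42, adjusted p = 1.39e-09). CRELD2 (0.335, adjusted p = 0.348) and WFS1 (0.33, adjusted p = 0.276) did not pass there. Among the 4 genes of the translocon and COPII coat, SEC24D, a cargo adaptor of the coat, was higher with both (0.86 and 1.66), the translocon subunit SEC61B with IMQ (0.39, adjusted p = 0.000402), and SSR1 and SEC23B with neither.

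**Figure D3:**
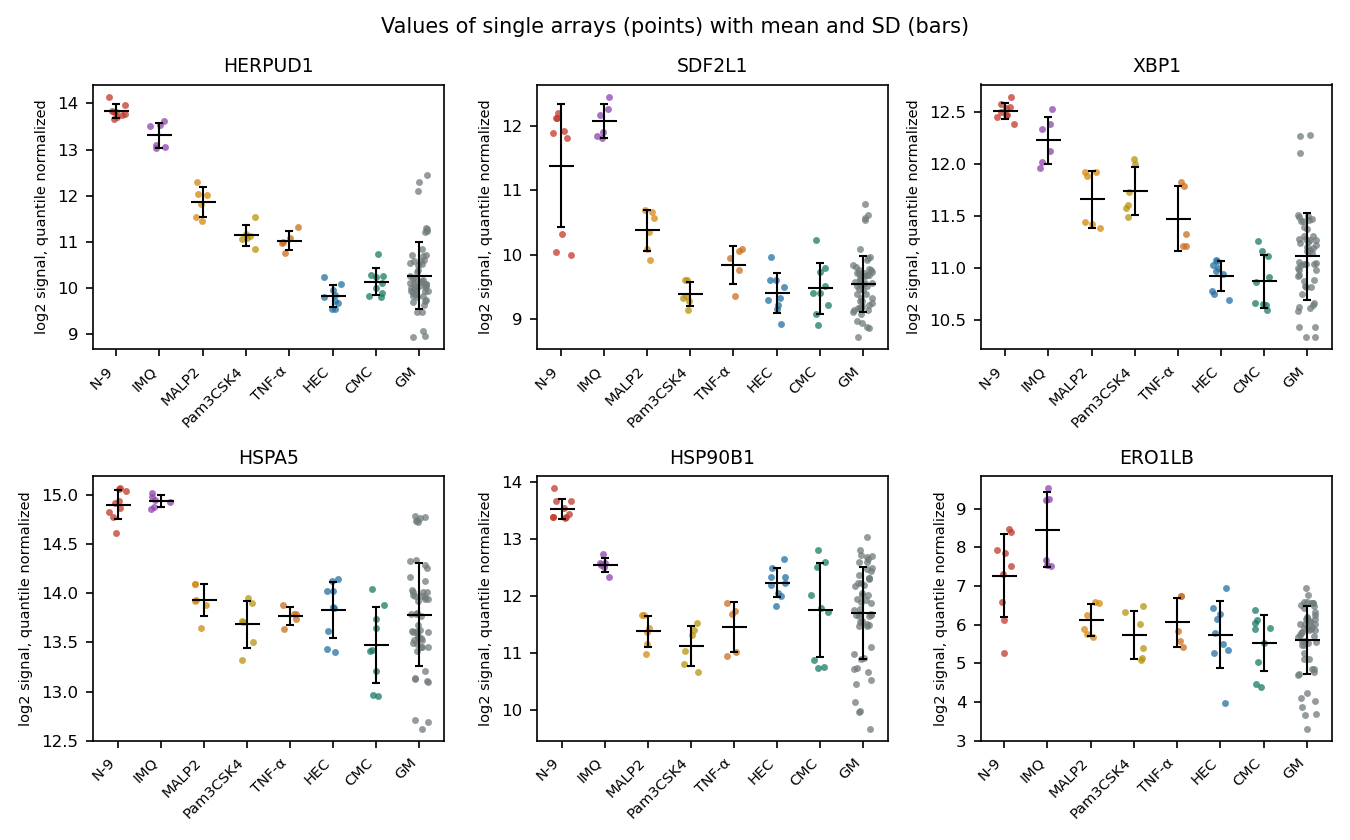
Quantile normalized log2 signal of 6 genes on every array, with 1 point per array and the mean and SD of each group in black. N-9 and IMQ have the highest means for all 6, and for SDF2L1 the N-9 replicates 4 to 6 lie at 10.00 to 10.32, apart from the other N-9 arrays.

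Every treated array was above every GM array for 4 genes with N-9 (HERPUD1, HSP90B1, SELK and XBP1), where 0.163% of all probesets showed this, and for 12 with IMQ (CREB3L2, DERL2, DNAJC3, EIF2AK3, ERO1LB, HERPUD1, HSPA5, MANF, SDF2L1, SEC24D, SEL1L and SELK), where 0.632% did. The lower number for N-9 went with its replicates 4 to 6. In these 3 arrays the median difference of the 34 genes from their GM mean was 0.24, against 1.34 in replicates 1 to 3 and 0.87 in replicates 7 to 9, and 26 of the 34 genes had their lowest N-9 mean there. SEL1L was at 10.23, 9.67 and 9.86 in replicates 4 to 6, between 11.25 and 12.65 in the other 6 N-9 arrays, and at a mean of 10.20 in GM. DERL2 was at 10.38, 10.15 and 10.13 there and between 12.05 and 12.51 in the other N-9 arrays. Replicates 4 to 6 of HEC and GM were low in the same genes, with means of 9.62 and 9.43 for SEL1L and 10.43 and 10.33 for DERL2. Against the GM arrays of the same numbers, the median difference with N-9 was 0.95 in replicates 1 to 3, with 34 of the 34 genes above GM, and 0.30 in replicates 4 to 6, with 23 above. A fit of N-9 and GM replicates 1 to 6 within these sets, added after the data were seen, called 17 genes higher and none lower (3.84% and 4.76% of all probesets), 14 of them among the 22. In it HERPUD1 rose by 4.36, XBP1 by 1.63 and SELK by 1.47. The 8 of the 22 that did not pass were ERN1 (0.80, adjusted p = 0.224), DERL2 (0.46, adjusted p = 0.243), CREB3L2 (0.62, adjusted p = 0.103), DNAJC3 (0.46, adjusted p = 0.133), HYOU1 (0.36, adjusted p = 0.144), CRELD2 (0.40, adjusted p = 0.335), WFS1 (0.54, adjusted p = 0.0610) and PDIA6 (0.12, adjusted p = 0.575). HERPUD1, HSPA5, HSP90B1 and XBP1 did not share this drop, since the means of the 3 sets differed by 0.15, 0.30, 0.21 and 0.12. The labels do not say what arrays with consecutive numbers have in common. Without replicates 4 to 6, 23 genes were higher with N-9, and without replicates 1 to 3, 15 were. Shares of all probesets are not given for these 2 fits, so the counts have no background to be read against.

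DNAJB9, an HSP40 whose gene is a known target of spliced XBP1, was the least settled. Its brightest probeset had values between 13.19 and 13.42 in N-9 replicates 1 to 3, between 11.45 and 12.03 in replicates 4 to 6, and between 5.65 and 7.46 in replicates 7 to 9, against 7.63 to 10.79 in GM. With IMQ it was between 9.10 and 9.56 in replicates 1 to 3 and between 13.12 and 13.27 in replicates 4 to 6. The N-9 arrays thus lay on both sides of the GM range, and the IMQ arrays within and above it. The change was 0.87 ± 0.42 with N-9 (adjusted p = 0.145) and 1.51 ± 0.50 with IMQ (adjusted p = 0.0320, and 0.0663 with the random block). On the N-9 and IMQ arrays the third probeset was highest where the first was lowest. Its means were 11.40, 9.34 and 13.43 in the 3 N-9 sets and 13.13 and 11.38 in the 2 IMQ sets. Some GM arrays split alike. Replicates 53 and 54 of GM were at 7.97 and 7.63 on the first probeset and at 10.20 and 10.08 on the third. The GM medians were 9.98 and 7.84. The second probeset did not split in this manner, with values from 10.19 to 12.45 under N-9, from 11.28 to 11.98 under IMQ and from 8.02 to 11.15 in GM. On the third and second probesets DNAJB9 rose by 3.01 and 2.99 with N-9 and by 3.87 and 3.01 with IMQ, all past the threshold. The cause of the difference between the probesets was not tested.

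**Figure D4:**
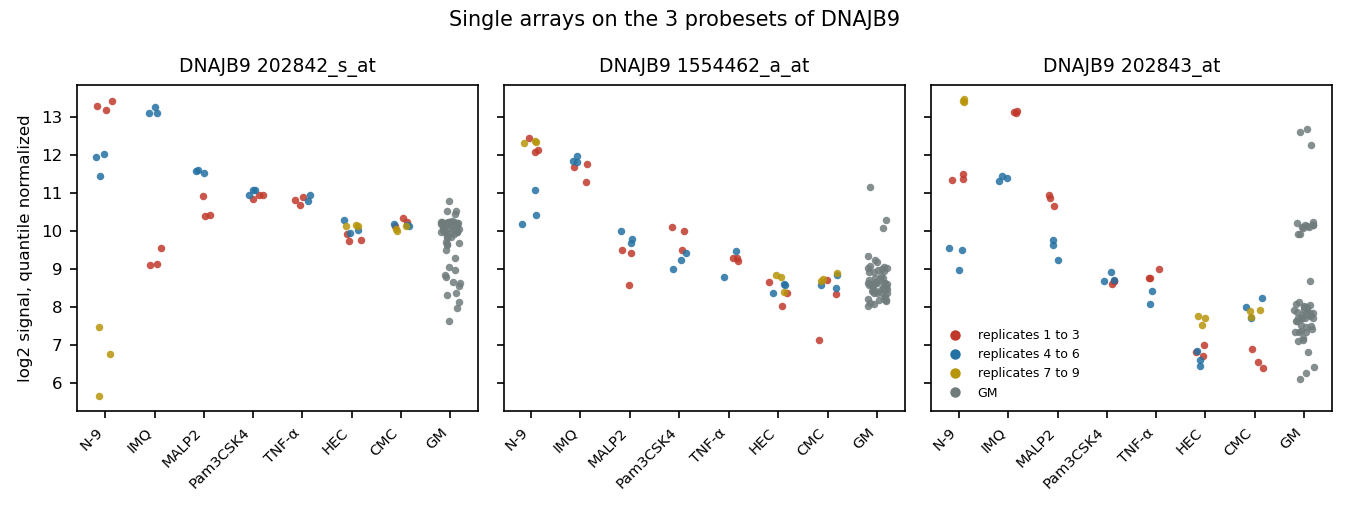
Quantile normalized log2 signal of the 3 probesets of DNAJB9, 1 point per array, coloured by replicate number for the treatments and grey for GM. N-9 replicates 7 to 9 lie between 5.65 and 7.46 on the left panel and at a mean of 13.43 on the right one.

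IMQ exceeded N-9 in the direct contrast for 5 of the 34 genes, and N-9 exceeded IMQ for none, where 5.57% of all probesets were lower and 5.19% higher with N-9 than with IMQ. The compounds and their doses differ in kind, so the contrast compares the 2 treatments as given. EIF2AK3 was lower with N-9 than with IMQ by 1.05 on the log2 scale (95% interval -1.54 to -0.57, adjusted p = 0.00157), and its arrays did not overlap. In GM it averaged 9.68 in replicates 1 to 3 and 9.00 in replicates 4 to 6, where all GM arrays averaged 9.92. The fit within these sets gave a rise of 1.02 with N-9 (limma, adjusted p = 0.000786). The part of such differences between sets in the contrast with IMQ was not tested. CREB3L2 had values of 10.18, 10.71 and 11.03 with N-9 and 11.38, 11.48 and 11.71 with IMQ, again with no overlap, and a difference of -0.85 (adjusted p = 6.63e-06). DNAJC3 (-0.78), CANX (-0.43) and SEC61B (-0.40) passed as well. With sets of 3 as a random block, EIF2AK3 and CREB3L2 passed (adjusted p = 0.0149 and 0.000324) and the other 3 did not (adjusted p = 0.0596 to 0.162), where 1.83% of all probesets were lower. HSP90B1 was 0.98 higher with N-9 (95% interval 0.29 to 1.68) and missed the threshold (adjusted p = 0.0528), as did HERPUD1 at 0.53 (adjusted p = 0.268).

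The TLR2 ligand MALP2 raised 5 of the 34 genes and lowered none, where 3.28% of all probesets were higher and 3.66% lower, and the median change was 0.08. HERPUD1 had values of 11.45, 11.91 and 12.29 with MALP2 and 8.92, 10.11 and 12.44 in GM. The MALP2 arrays overlapped only the upper end of GM. The change was 1.60 ± 0.24 (3.02-fold, adjusted p = 4.01e-07). SDF2L1 had 9.92, 10.46 and 10.69 with MALP2 and rose by 0.84 ± 0.20 (adjusted p = 0.00279). XBP1 had 11.38, 11.66 and 11.92 and rose by 0.55 ± 0.15 (adjusted p = 0.00971). EIF2AK3, with 10.19, 10.74 and 10.89, rose by 0.71 ± 0.20 (adjusted p = 0.0146), and DNAJC3, with 11.06, 11.42 and 11.99, by 0.65 ± 0.18 (adjusted p = 0.0101). These last 2 did not pass with sets of 3 as a random block (adjusted p = 0.0746 and 0.0590), which left 3 genes (1.73% of all probesets higher). Without MALP2 replicates 4 to 6 only 2 genes passed, a count given without the share of all probesets. Against GM replicates 1 to 9 alone, 9 were higher and 7 lower (7.82% and 8.72% of all probesets). ERN1 and ATF6 were at 7.98 to 8.70 and at 9.14 to 9.43 with MALP2, both within the GM range. HSPA5 did not follow HERPUD1 here, with 13.65 to 14.09 on the MALP2 arrays.

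Pam3CSK4, the other TLR2 ligand, raised 2 of the 34 genes, HERPUD1 and XBP1, where 1.31% of all probesets were higher, and lowered none, where 0.859% were lower. XBP1 had values of 11.49, 11.67 and 12.05 with Pam3CSK4 and rose by 0.63 ± 0.15 (adjusted p = 0.00697). HERPUD1 had 10.85, 11.11 and 11.54 and rose by 0.88 ± 0.24 (adjusted p = 0.0278), which did not pass with the random block (adjusted p = 0.126, with 0.419% of all probesets higher). Both lay inside the GM range. ERN1 was at 8.39 to 9.08, ATF6 at 8.90 to 9.32 and EIF2AK3 at 10.12 to 10.48, and their changes of 0.53, -0.38 and 0.40 did not pass. Leaving out either set of 3 Pam3CSK4 arrays left 0 or 1 gene, again without the share of all probesets beside it. Against GM replicates 1 to 9 alone, 4 genes were higher and 11 lower (6.44% and 6.64% of all probesets), EIF2AK3 (1.08, adjusted p = 0.00329) and ATF6 (-0.40, adjusted p = 0.0417) among them. DNAJB9 was the 1 gene whose 6 Pam3CSK4 arrays (10.85 to 11.08 on the brightest probeset) were all above the highest GM array, as 0.108% of all probesets were. Its change of 1.27 on this probeset did not pass (adjusted p = 0.209). On the other probesets of DNAJB9 the Pam3CSK4 arrays lay inside the GM range. They were at 9 to 10.1 where GM ran from 8.02 to 11.15, and at 8.6 to 8.92 where GM ran from 6.09 to 12.68.

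TNF-α changed none of the 34 genes in limma, where 0.526% of all probesets were higher and 0.196% lower. An unadjusted p under 0.05 was found for 4 of the 34 genes and for 4520 of the 54613 probesets. XBP1 had 11.21, 11.33, 11.21, 11.83 and 11.79 on the 5 TNF-α arrays, with a change of 0.36 (adjusted p = 0.503). HERPUD1 had 10.76, 10.99, 11.32, 11.08 and 10.97 there, a change of 0.76 (adjusted p = 0.210). All 5 arrays were above the GM median of 10.11 for HERPUD1. Against GM replicates 1 to 9 alone, 4 genes passed as higher, HERPUD1 and XBP1 among them, and 3 as lower (3.54% and 4.07% of all probesets). ERN1 was at 8.58, 9.11, 8.68, 8.45 and 8.41, EIF2AK3 at 10.37, 10.42, 10.28, 10.22 and 10.42, and ATF6 at 9.57, 9.69, 9.57, 9.26 and 9.29, all within or at the edge of the GM range.

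**Figure D5:**
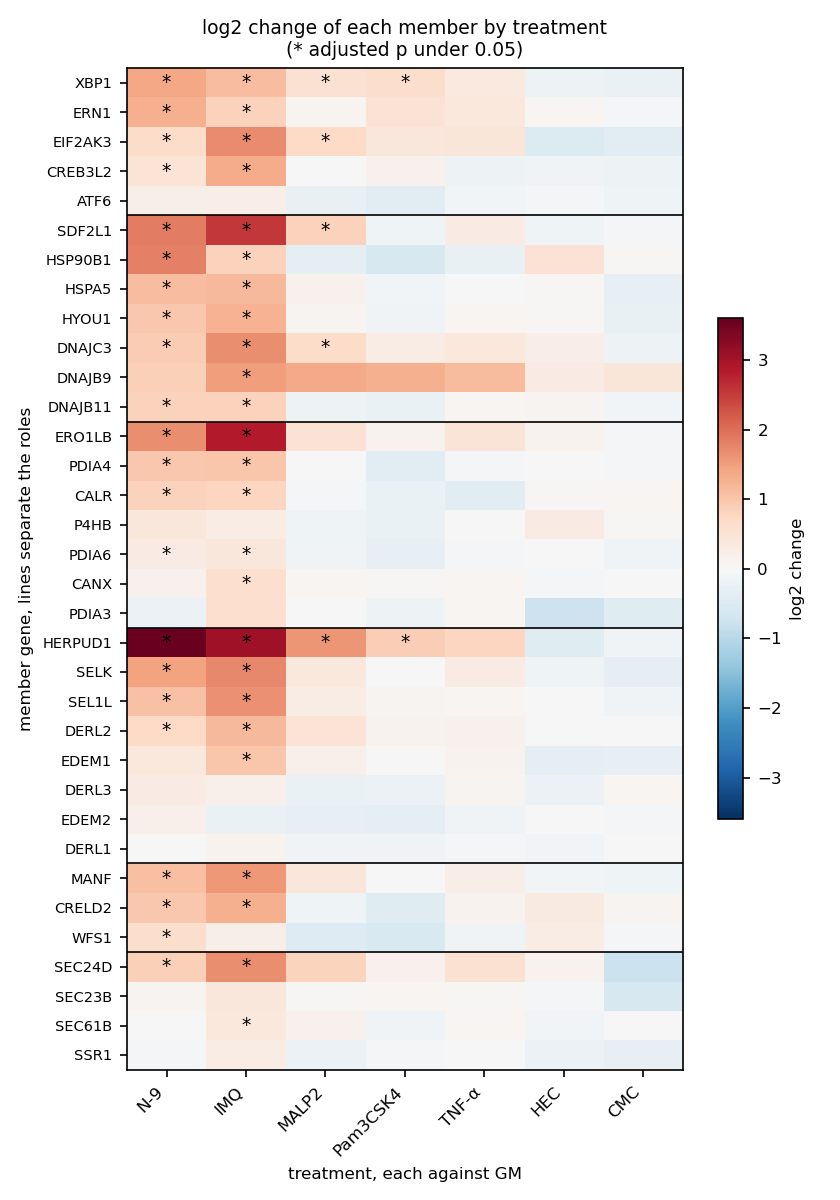
log2 change of each of the 34 genes (rows, by role) in each treatment against GM (columns), red for higher and blue for lower, with an asterisk where the adjusted p was under 0.05. Asterisks number 22, 25, 5 and 2 for N-9, IMQ, MALP2 and Pam3CSK4, and there are none for TNF-α, HEC and CMC.

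HEC and CMC changed none of the 34 genes, where 0.328% and 0% of all probesets were higher and 0.465% and 0.00183% lower. An unadjusted p under 0.05 was found for 5 of the 34 genes with HEC and for 6 with CMC. Of the 54613 probesets, 8407 had one with HEC and 3895 with CMC. HERPUD1 had 9.54, 9.79 and 10.23 with HEC and 9.80, 10.11 and 10.74 with CMC, both inside the GM range. XBP1 was at 10.69 to 11.08 with HEC and 10.59 to 11.26 with CMC, ERN1 at 8.09 to 8.66 and 7.55 to 8.51, ATF6 at 9.19 to 9.90 and 9.25 to 9.54, and EIF2AK3 at 8.57 to 9.92 and 7.63 to 10.21. The lowest EIF2AK3 values of each gel, 8.57 and 7.63, were below the lowest of GM. The first was in HEC replicates 4 to 6, which averaged 8.74, where GM replicates 4 to 6 averaged 9.00. The second of these values came from CMC replicate 3, without which no gene passed either. Against GM replicates 1 to 9 alone, CMC had 1 gene higher and 4 lower (0.751% and 0.591% of all probesets), and HEC none. Both gels are ethers of cellulose that carry different groups, hydroxyethyl in HEC and carboxymethyl in CMC, and dose and time were matched, so this 1 pair was compared directly. None of the 34 genes differed between them in limma (0% of all probesets in either direction). An unadjusted p under 0.05 was found for 3 of the 34 genes and for 3883 of the 54613 probesets. The differences ran from -0.31 for HERPUD1 (95% interval -0.84 to 0.21) to 0.89 for SEC24D (0.27 to 1.51, adjusted p = 0.538), and the 95% intervals reached 0.39 to either side in the median gene and 1.08 in the widest. Differences up to these sizes would not have been seen, and larger ones could be missed too. SEC24D, whose interval was positive throughout, did not pass after adjustment over all probesets.

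Untreated cultures varied in the same genes. HERPUD1 averaged 12.28 in GM replicates 22 to 24, within the MALP2 range, and XBP1 12.22, within the IMQ range. On these 3 arrays the third probeset of DNAJB9 was between 12.27 and 12.68. Its brightest probeset was between 8.83 and 9.50 there, below the GM median of 9.98. HSPA5 averaged 14.76 in GM replicates 37 to 39 and 14.75 in replicates 49 to 51, above the lowest N-9 array. Of the 34 genes, 11 had their highest GM mean in replicates 37 to 39, 8 in replicates 49 to 51 and 6 in replicates 22 to 24. HERPUD1 and XBP1 in N-9 cultures remained above all of them. Arrays of such a set deviated together, with a median correlation of 0.231 against -0.06 between sets of a group, so p-values that treat arrays as separate are too small. With sets of 3 as a random block, 21 genes were higher with N-9 (3.46% of all probesets) and 23 with IMQ (2.44%).

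Of 30 measured genes with a promoter in the table, the 10 with an ERSE or ERSE-II match and the 20 without are described without a test. With N-9, 9 of the 10 were higher, with a median log2 change of 1.26, and 12 of the 20, with a median of 0.65. CANX was the gene with a match that did not pass. With IMQ, 10 of the 10 and 14 of the 20 were higher, with medians of 1.20 and 0.92, and with MALP2 it was 3 of the 10 and 2 of the 20.

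Among 163 other genes of the ER and its stress response, 37 were higher and 13 lower with N-9, 38 and 6 with IMQ, 5 and 15 with MALP2, 0 and 2 with Pam3CSK4, 0 and 1 with HEC, and none with TNF-α or CMC. As shares, 22.7% were higher and 7.98% lower with N-9, where 7.35% and 10.1% of all probesets were, and 23.3% and 3.68% with IMQ, where 4.68% and 6.19% were. With MALP2 they were 3.07% and 9.20%, where 3.28% and 3.66% of all probesets were. The median changes were 0.11 with N-9 and 0.16 with IMQ, where those of the 34 genes were 0.83 and 1.00. In the arm downstream of PERK and ATF4, 11 of 12 genes were higher with N-9, 9 with IMQ and 2 with MALP2. DDIT3, the gene of the transcription factor CHOP, rose by 4.91 ± 0.20 with N-9 (30.1-fold), by 3.49 ± 0.24 with IMQ and by 1.13 ± 0.24 with MALP2. ATF3, a stress-induced transcription factor, rose by 3.78 with N-9 and 2.10 with IMQ, CHAC1, which degrades glutathione, by 3.59 and 2.95, and PPP1R15A, the phosphatase subunit that restores translation, by 3.00 with N-9, 1.90 with IMQ and 0.95 with MALP2. In contrast to EIF2AK3, the gene of PERK itself, DDIT3, ATF3 and PPP1R15A were higher with N-9 than with IMQ in the direct contrast, by 1.42, 1.68 and 1.09 (adjusted p = 0.000291, 0.00337 and 0.000326). MALP2 raised SEC24A, a COPII adaptor, by 0.92 and lowered GPX8, a peroxidase of the ER, by 0.99. Pam3CSK4 lowered FKBP11 (-1.07) and ALG5 (-0.33), an ER proline isomerase and a glycosylation enzyme, neither of which passed with the random block (adjusted p = 0.0969 and 0.188). With HEC the 1 gene that passed was CHAC1, at -1.69 (adjusted p = 0.0144, and 0.385 with the random block).

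Of 41 genes of the translocon, signal peptidase and glycosylation, 7 were higher and 1 lower with N-9 and 7 and 2 with IMQ. These are 17.1% and 2.44% with N-9 and 17.1% and 4.88% with IMQ. Of 37 genes of COPII, retrieval and ER exit, 8 were higher and 3 lower with N-9 and 11 and 0 with IMQ, which are 21.6% and 8.11% with N-9 and 29.7% and 0% with IMQ. In the remaining ERAD genes, 3 were higher and 6 lower with N-9 and 4 and 3 with IMQ, out of 29. These are 10.3% and 20.7% with N-9 and 13.8% and 10.3% with IMQ, against 7.35% and 10.1%, and 4.68% and 6.19%, of all probesets. VCP, the ATPase that pulls ERAD substrates from the membrane, was lower with N-9 by 0.67 and UBE2G2, an ERAD ubiquitin-conjugating enzyme, by 0.73.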

How the data were processed

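Gene expression was measured with Affymetrix U133 Plus 2.0 arrays in 105 cultures of Vk2/E6E7 cells. The deposited table holds log2 values, 1 per probeset and array. The authors had summarized, scaled and log-transformed them, and the submitters' notes name MAS5 and GCOS 1.3, whereas the methods describe RMA. MAS5 makes dim probesets noisy, so their folds are less precise. The number of arrays limits the precision.

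Values were quantile normalized and tested in limma 3.58.1 (R 4.3.3, data.table version 1.17.8) with 1 mean per group and Benjamini-Hochberg adjustment over 54613 probesets (62 control probesets left out), GM replicate 52 and TNF-α replicate 6 excepted. There was no filter on dim probesets. Of all probesets, 41097 name 1 gene, 1801 several and 11777 none. Arrays of 3 consecutive replicate numbers were also fitted as a random block. Python 3.11.15, pandas 2.3.3 and matplotlib 3.10.9 served for promoters and figures. The limma step was tested on simulated arrays that varied independently, which does not cover the correlation within sets of 3.

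The members and lists were chosen with earlier results of these data known. Values of single arrays are given for, per treatment, the 6 members with the largest change past an adjusted p of 0.05 and for XBP1, ERN1, ATF6 and EIF2AK3, and of the other pathway genes the 4 with the largest change are named. CREB3L2, HSPA5, DNAJB9, SEL1L, DERL2, SEC23B, SEC24D, VCP and UBE2G2 were described further after their values were seen. Alternatives were no quantile normalization, a minimum mean of 7, an offset of 16, all 105 arrays, other controls, blocks, probesets and tests, and each set of arrays left out. A comparison within sets of replicates 1 to 6 and one without CMC replicate 3 were added after the data were seen. The labels call the arrays biological replicates without saying how the cultures were kept apart, so the p-values cover only how much these arrays vary.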

Additional observations from a re-analysis of the deposited data

Results flagged for a closer look

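Among 42 groups of array values examined, ERN1 in CMC replicate 3 was far from the others, at 7.55 where the next lowest of the 9 CMC arrays was 8.17 (gap over range 0.645, critical value 0.493). About 1 in 20 such groups would be picked by chance. Over all 34 genes and 7 treatments, 15 of 238 groups held such an array, and 4 of the 15 were CMC replicate 3. On this array SEC23B was at 8.81 (next lowest 12.47), SEC24D at 6.86 (next lowest 8.48) and CANX at 13.70 (next highest 13.11), and 10 of the 34 genes had their lowest CMC value. Without it, 0 genes differed between CMC and GM or between HEC and CMC (limma, adjusted p).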

How the results depend on the processing

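For N-9, 17 to 24 of the 34 genes were higher under the alternatives other than a fold limit and leaving out a set of 3 arrays, and none was lower except 1 on the second brightest probesets. The methods' analysis of variance with a fold over 2 left 10 for N-9, 2 for MALP2, 1 for Pam3CSK4 and 1 for TNF-α. For IMQ, 17 to 25 were higher. In limma with a fold over 2, IMQ had 17 genes higher. Leaving out 1 set of 3 arrays gave 15 to 23 genes higher with N-9, 20 to 22 with IMQ, 2 to 5 with MALP2, 0 to 1 with Pam3CSK4 and 0 with TNF-α, HEC and CMC (0 with TNF-α also without any 1 array), with 0 to 2 lower with HEC (2 without replicates 7 to 9) and with CMC (2 without replicates 4 to 6) and 0 lower with the others. The counts for MALP2 and Pam3CSK4 were least stable: 8 and 2 higher with 1 and 2 lower when probesets under a mean of 7 were dropped, 2 and 0 higher with all 105 arrays, 3 and 1 with the random block, and 2 and 1 on the second brightest probesets. On those, HERPUD1 with MALP2 (-0.16) and Pam3CSK4 (-0.14) and EIF2AK3 with MALP2 (-0.41) changed sign without passing, at mean signals of 4.15 and 2.79. The random block left 2 differences between N-9 and IMQ, and a fit of these 2 groups alone 3. The cause of these changes was not tested. Shares of all probesets are given only for the random block, the other controls and the fit within sets. The remaining counts under alternatives show how calls moved and have no background to be read against.

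When the controls were cut to GM replicates 1 to 9, 20 genes were higher with N-9, 17 of them among the 22 (CALR, CRELD2, HYOU1, PDIA6 and WFS1 lost, DERL3, EDEM1 and PDIA3 gained), and 24 with IMQ, 22 of them among the 25 (CALR, DNAJB9 and HSP90B1 lost, DERL3 and PDIA3 gained), where 5.73% and 9.91% of all probesets were higher. There were 9 higher and 7 lower with MALP2, 4 and 11 with Pam3CSK4, 4 and 3 with TNF-α, and 1 and 4 with CMC. Adding the replicate number as a replicate block gave 20 higher with N-9, 23 higher and 2 lower with IMQ, 10 and 8 with MALP2, 5 and 12 with Pam3CSK4, 6 and 6 with TNF-α, and 1 and 4 with CMC. The shares of all probesets higher and lower under this block were 6.14% and 7.43%, 12.8% and 13.6%, 11.1% and 11.7%, 10.1% and 10.1%, 6.63% and 7.28%, and 1.54% and 1.5% in the same order. Deviations correlated with those of the same-numbered GM array at 0.25 to 0.34 for replicates 1 to 6 of N-9 and HEC, at -0.24 to -0.10 for their replicates 7 to 9, and at -0.22 to 0.10 for the other treatments, so the numbers were not taken to pair the samples throughout. Of 214 alternatives for the named genes, 182 kept their direction and call, 29 lost the call and 3 changed sign.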

Other observations

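HSP90B1 has 2 further probesets that the annotation shares with MIR3652. They rose by 1.62 and 0.83 on the log2 scale with N-9 (adjusted p = 1.26e-08 and 1.00e-08) and by 0.85 and 0.93 with IMQ (adjusted p = 0.0244 and 1.03e-07), and with the random block the first did not pass for IMQ (adjusted p = 0.0752). With MALP2 they changed by -0.24 and 0.07 and did not pass.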
